A study of Mus musculus with 15 samples.

Results

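The genes described here encode the nuclear subunits of the mitochondrial respiratory chain, measured in crypts of the mouse small intestine. They were chosen by symbol: the families Ndufa, Ndufb, Ndufc, Ndufs and Ndufv, Uqcr, Cox4 to Cox8 and Atp5, and the genes Sdha, Sdhb, Sdhc, Sdhd, Cycs and Cyc1, with the Ndufaf assembly factors left out. By this rule 118 of 39429 probes on the array belonged to 87 genes. Of these genes, 85 had enough signal to be tested, among 23939 features in all. Complex I had 36 tested genes, complex II 4, complex III 9, complex IV 18 and complex V 17, and Cycs encodes the electron carrier cytochrome c. Ndufa4 and Ndufa4l2 carry complex I names but were counted with complex IV, where the Ndufa4 protein is now known to sit. The 2 genes without enough signal were Cox7b2 and Cox8c, isoforms of complex IV subunits known from testis. None of the 13 mitochondrially encoded subunits was matched to a probe, and they were not analysed here.

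All mice were 6 to 8 weeks old and crypts were taken 24 h after antibody. Mice of the N1N2 plus Lrp6 group were given antibodies that block Notch1 and Notch2, and also anti-Lrp6 at 30 mg/kg. Lrp6 is a receptor that passes on Wnt signals. The N1N2 group had received the Notch1 and Notch2 antibodies alone. The Control group had received a control IgG antibody. The labels give the Notch antibodies as 1 mg/mL, a concentration, so the amount per animal is unknown here, as are the mouse strain and whether an array held RNA of 1 animal or a pool. Each group had 5 arrays, named as replicates, and p-values measure the spread between those arrays. Crypt RNA was labelled red and hybridised against a green universal mouse reference RNA, so every level below is a log2 ratio of crypt over reference.

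The respiratory chain moves electrons from NADH (complex I) and succinate (complex II) through complex III and cytochrome c to oxygen at complex IV. The proton gradient built on the way drives ATP synthesis by complex V. In crypts, stem cells and dividing progenitors lie next to Paneth cells, and intestinal stem cells are known for active mitochondrial respiration while Paneth cells lean on glycolysis. Notch signalling keeps progenitors out of the secretory fate and Wnt signalling maintains the stem cells.

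Markers of the labelled tissue were present: all 18 enterocyte, all 12 goblet and all 5 Paneth genes with a probe, and 6 of 7 crypt base stem cell genes, were above background on every array. The arrays of the N1N2 plus Lrp6 group stood apart in 2 ways. Between 57.2% and 73.6% of their spots were well above background in red, against 70.1% to 77.2% in N1N2 and 71.1% to 79.8% in Control. They also carried more of a set of 6 lung genes, whose mean log2 ratio was 2.08 ± 0.46 in N1N2 plus Lrp6, 0.72 ± 0.09 in N1N2 and 0.80 ± 0.21 in Control (SD, n = 5 each). Sftpc, a lung surfactant gene, was 5.34 higher on the log2 scale in N1N2 plus Lrp6 than in N1N2 (limma, adjusted p = 0.000246). It was the largest change of the set, whose median change was 0.57. Of the 6 genes, 4 rose and 0 fell, and 1 was below N1N2, while 9.44% of all features rose. Of 8 lung genes with a probe, Nkx2-1 was above background on 0 of 15 arrays, Sftpb on 1 and Sftpa1 on 5. The part of the lung genes in the results below was not tested, and a fit with the share of spots as a covariate is given there. Arrays lay on 6 slides, and 1 slide held arrays of both N1N2 and Control, while the N1N2 plus Lrp6 arrays shared no slide with another group. The targets of the antibodies are blocked as proteins, so their transcripts check no label: Notch1 differed by 0.03, Lrp6 by 0.32 and Notch2 by -0.55 between N1N2 and Control (log2, adjusted p = 0.939, 0.267 and 0.0154 in the limma fit).

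Promoter windows in RefSeq (build GRCm38.p6, 250 bases before to 50 after the gene start) were available for 70 of the 87 genes. They were searched on both strands for sites of 4 factors known to act on nuclear mitochondrial genes: NRF1 (GCGCATGC), YY1 (AAGATGGC), GABP (CCGGAAGT) and ERR (TCAAGGTCA). The NRF1 letters were in 15.7% of the respiratory chain genes and in 3.05% of all 27025 genes of the table. The YY1 letters were in 14.3% and 3.19%, the GABP letters in 7.14% and 4.31%, and the ERR letters in 2.86% and 0.466%. Windows are printed for 4 genes that passed the test with the Lrp6 antibody, picked after their values were seen because they hold a site and moved in different directions. Ndufa11, Ndufa8 and Atp5pb rose there and Cox6a1 fell, as described below. Capitals mark the NRF1 site in Ndufa11 at chr17:56717512-56717811 (plus strand), in Ndufa8, where it is read on the opposite strand, at chr2:36049289-36049588 (minus strand) and in Cox6a1 at chr5:115348909-115349208 (minus strand), and the YY1 site, on the opposite strand, in Atp5pb at chr3:105959214-105959513 (minus strand). In Ndufa11 and Cox6a1 the capitals cover overlapping NRF1 matches on both strands.
Ndufa11: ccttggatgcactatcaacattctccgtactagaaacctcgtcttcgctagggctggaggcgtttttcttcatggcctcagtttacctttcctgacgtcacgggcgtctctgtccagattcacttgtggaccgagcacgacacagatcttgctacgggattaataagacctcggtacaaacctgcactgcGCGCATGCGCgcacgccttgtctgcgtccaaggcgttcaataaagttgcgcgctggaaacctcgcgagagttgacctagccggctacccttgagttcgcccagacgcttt
Ndufa8: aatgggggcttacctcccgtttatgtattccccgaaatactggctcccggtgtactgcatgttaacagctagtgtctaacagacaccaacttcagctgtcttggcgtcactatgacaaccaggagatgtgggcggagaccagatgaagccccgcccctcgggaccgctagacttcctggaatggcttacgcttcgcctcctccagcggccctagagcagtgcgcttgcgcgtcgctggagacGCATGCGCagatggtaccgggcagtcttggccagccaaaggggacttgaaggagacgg
Cox6a1: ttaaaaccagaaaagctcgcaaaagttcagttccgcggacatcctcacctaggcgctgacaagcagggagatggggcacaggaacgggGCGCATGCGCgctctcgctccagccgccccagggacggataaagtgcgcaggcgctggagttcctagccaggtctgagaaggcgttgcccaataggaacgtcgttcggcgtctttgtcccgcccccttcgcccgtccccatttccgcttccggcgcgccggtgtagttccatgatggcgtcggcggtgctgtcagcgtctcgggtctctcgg
Atp5pb: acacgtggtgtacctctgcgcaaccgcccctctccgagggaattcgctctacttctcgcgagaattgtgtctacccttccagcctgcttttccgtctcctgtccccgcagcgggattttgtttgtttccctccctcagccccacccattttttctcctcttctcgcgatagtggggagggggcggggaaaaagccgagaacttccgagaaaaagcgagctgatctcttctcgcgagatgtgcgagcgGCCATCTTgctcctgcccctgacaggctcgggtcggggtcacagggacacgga
Among the 13 genes with a window that passed either of the tests that follow, 3 held the NRF1 letters and 3 the YY1 letters, and among the 56 tested genes with a window that passed neither, 8 held the NRF1 letters and 7 the YY1 letters. These are matches of letters and not measured binding.

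The comparison of N1N2 with Control asked what blocking Notch1 and Notch2 does to crypts. Of the 85 respiratory chain genes, 10 fell and 1 rose in N1N2 (limma fit of 15 arrays, Benjamini-Hochberg adjusted p under 0.05). Falls made up 11.8% of these genes, against 5.15% of all features, and rises 1.18%, against 6.57%. The genes that fell were 6 subunits of complex I, 2 of complex II and 1 each of complexes III and V. No gene of complex IV passed the test in either direction. These falls depended on how spots with a quality flag were handled, a choice made with results known. With those spots kept in the background fit, 0 genes fell and 2 rose, while 3.01% of all features fell and 7.23% rose. Each of the 10 genes was still below Control there, by at least 0.08 on the log2 scale. With arrays scaled to each other 2 genes fell, beside 1.12% of all features, and all 10 were still below Control. The median over the 85 genes was -0.04 on the log2 scale, beside 0.0017 over all features, and the range ran from -0.54 to 0.46. That median was -0.34 with median centring, -0.35 with scaled arrays and 0.18 with the quality-flagged spots kept, so neither its size nor its sign was settled. In bulk RNA, fewer cells of a type and less RNA per cell cannot be told apart.

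Ndufab1, the mitochondrial acyl carrier protein and a complex I subunit, had log2 ratios of 1.49, 1.40, 1.49, 1.24 and 1.50 in N1N2, against 1.84, 1.87, 1.56, 1.87 and 1.89 in Control. Every N1N2 array lay below every Control array. The difference was -0.38 ± 0.08 (SE, adjusted p = 0.00893). Uqcrfs1, the Rieske iron-sulfur protein of complex III, had 1.26, 1.42, 1.50, 1.36 and 1.47 in N1N2, against 1.98, 1.94, 1.88, 1.92 and 1.99 in Control. The Control arrays were close together and the groups were well apart. It was the largest fall of the family, -0.54 ± 0.12 (adjusted p = 0.0113).

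Ndufs8, a core complex I subunit with iron-sulfur clusters, had 0.53, 0.37, 0.53, 0.32 and 0.70 in N1N2, against 0.95, 0.96, 0.83, 0.62 and 0.92 in Control. Its highest N1N2 array passed its lowest Control array, and the change was -0.37 (adjusted p = 0.0257). Ndufa10, a supernumerary subunit of the membrane arm, had 0.13, -0.36, 0.11, -0.26 and 0.26 in N1N2, against 0.80, 0.41, 0.60, 0.23 and 0.40 in Control. The groups overlapped slightly and the change was -0.51 (adjusted p = 0.0302). Ndufa11, a membrane-arm subunit whose promoter is printed above, had 0.24, 0.06, 0.26, 0.11 and 0.22 in N1N2, against 0.35, 0.45, 0.60, 0.39 and 0.46 in Control, without overlap. Its change was -0.27 (adjusted p = 0.0429), close to that of Ndufs1, the largest core subunit, at -0.27 (adjusted p = 0.0389). Ndufa11 and Ndufs1 lie outside the rule for named genes here and were named after their values were seen.

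Complex II, succinate dehydrogenase, also belongs to the tricarboxylic acid cycle. All 4 of its subunits had a mean below Control, with a median change of -0.34, and 2 passed the test. Sdha, the flavoprotein that oxidises succinate, had 1.85, 1.71, 1.90, 1.78 and 1.50 in N1N2, against 2.09, 2.11, 2.27, 2.24 and 2.11 in Control, and changed by -0.41 (adjusted p = 0.0315). Sdhc, a membrane anchor, had 0.69, 0.30, 0.27, 0.26 and 0.70 in N1N2, against 1.13, 0.77, 0.80, 0.77 and 0.85 in Control, and changed by -0.42 (adjusted p = 0.0228). Neither gene's groups overlapped. Sdhd, the other anchor, also had groups that did not overlap but did not pass the test (-0.27, adjusted p = 0.0629). Sdhb, the iron-sulfur subunit, differed by -0.01 (adjusted p = 0.954). A further, dimmer probe of Sdhb differed by -0.26, without a test of its own.

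Atp5a1, the alpha subunit of the catalytic head of ATP synthase, was the complex V gene that fell. It had 1.98, 1.87, 1.96, 1.97 and 1.93 in N1N2, against 2.35, 2.28, 2.38, 2.39 and 2.19 in Control, and changed by -0.38 (adjusted p = 0.030). The arrays did not overlap. Its partner in the head, the beta subunit Atp5b, differed by -0.20 (adjusted p = 0.251) and was named after its value was seen.

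Ndufb9, a membrane-arm subunit of complex I that binds the acyl carrier protein, was the gene that rose. It had 2.14, 2.02, 1.99, 2.24 and 2.08 in N1N2, against 1.48, 1.74, 1.88, 1.76 and 1.55 in Control. Every N1N2 array was above every Control array, and the change was 0.42 ± 0.12 (SE, adjusted p = 0.0331). With the arrays scaled to a common spread, it changed by -0.02. Groups without overlap were seen for 9 genes on the low side and 2 on the high side, against 5.9% and 6.14% of all features.

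Complex IV stood on the other side of 0 from complex II. Its median change was 0.08, with 13 of 18 genes above Control, but its median became -0.08 with median centring in place of loess and -0.17 with scaled arrays. Cox4i1, the ubiquitous form of a subunit that regulates the enzyme, differed by 0.46 (adjusted p = 0.182) and was spread from 1.86 to 2.62 in N1N2 and from 1.54 to 2.06 in Control. Cox6a1, the ubiquitous form of subunit VIa, differed by 0.45 (adjusted p = 0.153). The median changes of complexes I, III and V were -0.07, -0.07 and -0.10.

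**Figure D1:**
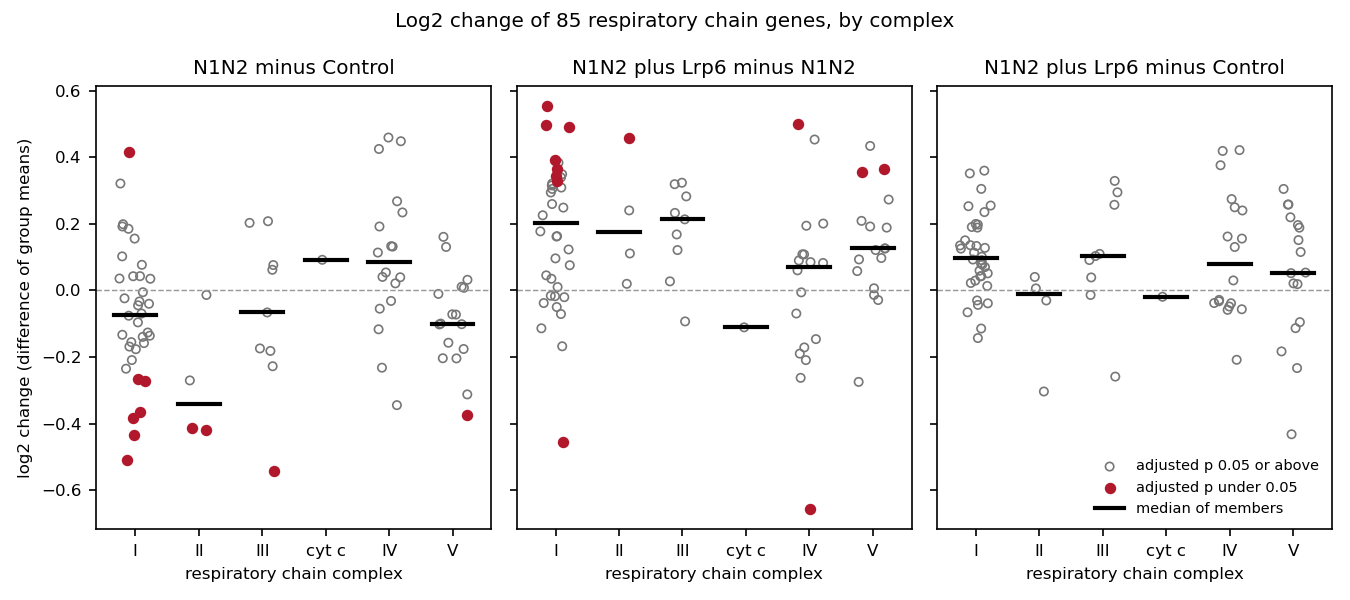
Difference of group means on the log2 scale for each of the 85 genes (points), by complex, with the median of each complex (bar), for N1N2 minus Control, N1N2 plus Lrp6 minus N1N2 and N1N2 plus Lrp6 minus Control. Filled points passed adjusted p under 0.05: 10 genes lie below 0 and 1 above in the left panel, 2 below and 11 above in the middle panel, and none passed in the right panel.

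Both groups lay together on 1 slide only, with 2 arrays each. Within that slide all 11 genes had the same sign as in the whole comparison, for example -0.61 for Uqcrfs1, -0.43 for Ndufab1 and 0.43 for Ndufb9. The genes were picked by the whole comparison, which includes these arrays, so the shared sign is partly built in. None passed the test within the slide, with adjusted p of at least 0.153. The median of the 85 genes there was 0.01. The call depended on single arrays: 10 falls became 3 without Control 1, 3 without Control 2, 5 without Control 3, 3 without Control 5, 2 without N1N2 2 and 2 without N1N2 4. Ndufab1 and Uqcrfs1 passed under each omission of 1 array, and each of the other genes missed the threshold under at least 1. Ndufb9 missed it without Control 1, 2 or 5 or N1N2 1, 4 or 5, with adjusted p of up to 0.0892 and changes of 0.37 to 0.43. The N1N2 arrays were not alike, since the median of the 85 genes, each centred on its mean over the 15 arrays, was 0.12 and 0.10 on N1N2 1 and 5 and between -0.22 and -0.15 on the other 3.

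**Figure D2:**
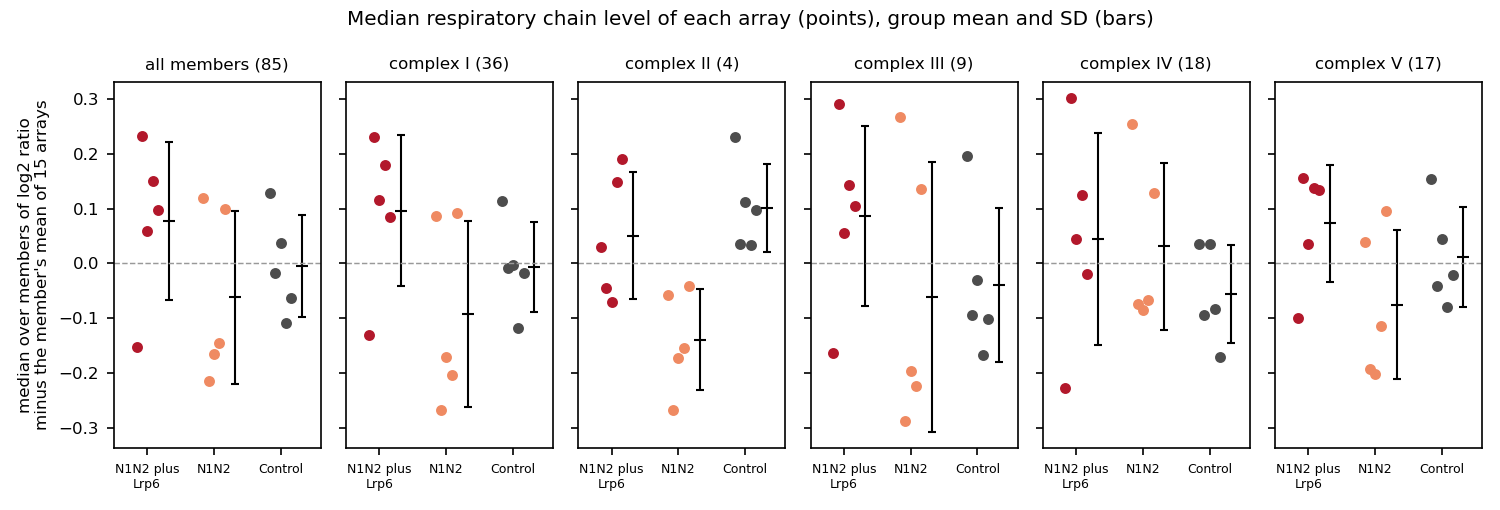
Median over the tested genes of each array's log2 ratio minus the gene's mean over the 15 arrays, for all 85 genes and by complex, with group mean and SD (bars) for N1N2 plus Lrp6, N1N2 and Control. In complex II every N1N2 array lies below every Control array, while in the other panels the groups overlap.

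The comparison of N1N2 plus Lrp6 with N1N2 asked what the Lrp6 antibody changes when Notch1 and Notch2 are blocked. Of the 85 genes, 11 rose and 2 fell in N1N2 plus Lrp6. Rises made up 12.9% of the genes, near the 9.44% of all features that rose, and falls 2.35%, against 7.26%. The genes that rose were 7 of complex I, 2 of complex V and 1 each of complexes II and IV, and none of complex III passed. The median change of the 85 genes was 0.12, beside -0.00095 over all features, and 63 of the 85 were above N1N2.

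Ndufab1 had 1.96, 1.97, 1.70, 1.97 and 2.00 in N1N2 plus Lrp6, against the N1N2 values given above, 1.24 to 1.50. The groups did not overlap, and the rise was 0.50 ± 0.08 (SE, adjusted p = 0.00162). Ndufs8 had 1.18, 0.77, 0.92, 1.12 and 0.91 in N1N2 plus Lrp6, against 0.32 to 0.70 in N1N2, without overlap, and rose by 0.49 (adjusted p = 0.00439). Ndufa10 had 0.86, 0.24, 0.42, 0.51 and 0.61 in N1N2 plus Lrp6, against -0.36 to 0.26 in N1N2. Its lowest array lay just below the highest N1N2 array, and the rise of 0.55 was the largest of the family (adjusted p = 0.0152). Ndufa11 had 0.76, 0.49, 0.32, 0.53 and 0.62 in N1N2 plus Lrp6, against 0.06 to 0.26 in N1N2, and rose by 0.37 (adjusted p = 0.00777) without overlap.

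Ndufb2, a small membrane-arm subunit, rose by 0.39 (adjusted p = 0.0191), with 1.24 to 1.78 in N1N2 plus Lrp6 and 1.05 to 1.49 in N1N2. Ndufa8, which faces the intermembrane space and whose promoter is printed above, had 0.77, 0.72, 0.69, 0.66 and 0.63 in N1N2 plus Lrp6, against 0.48, 0.16, 0.45, 0.14 and 0.53 in N1N2. The groups did not overlap and the rise was 0.34 (adjusted p = 0.0218). Ndufa9, which stabilises the junction of the arms of complex I, rose by 0.33 (adjusted p = 0.0266). Ndufa8, Ndufa9 and the complex V gene Atp5j lie outside the rule for named genes and were named after their values were seen.

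Sdhc had 1.01, 1.01, 0.68, 0.93 and 0.89 in N1N2 plus Lrp6, against 0.26 to 0.70 in N1N2, and rose by 0.46 (adjusted p = 0.0106) with a slight overlap. Sdhd differed by 0.24 (adjusted p = 0.082) and Sdha by 0.11 (adjusted p = 0.605). The median for complex II was 0.18 and all 4 subunits were above 0. In complex III, Uqcr10, a small subunit, differed by 0.32 (adjusted p = 0.097), and Cyc1, which carries the haem of cytochrome c1, by 0.32 (adjusted p = 0.0809). Uqcrfs1 differed by 0.28 (adjusted p = 0.141), and by 0.42 without N1N2 plus Lrp6 2 (adjusted p = 0.00452). Cytochrome c itself, Cycs, had 1.60, 1.54, 1.73, 1.65 and 1.95 in N1N2 plus Lrp6, against 1.95, 1.73, 1.79, 1.78 and 1.77 in N1N2, and differed by -0.11 (adjusted p = 0.577).

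Cox7a2l, also called SCAF1, links complexes III and IV in supercomplexes. It had 0.38, 0.26, -0.01, 0.30 and -0.08 in N1N2 plus Lrp6, against -0.06, -0.41, -0.59, -0.46 and -0.15 in N1N2. The groups touched at 1 array on each side, and the rise was 0.50 ± 0.11 (SE, adjusted p = 0.0080). Atp5j, coupling factor 6 of ATP synthase, had 1.16, 1.28, 1.12, 1.22 and 1.20 in N1N2 plus Lrp6, against 1.07, 0.69, 0.69, 0.72 and 1.03 in N1N2, and rose by 0.35 (adjusted p = 0.0198) without overlap. Atp5pb, subunit b of the peripheral stalk, rose by 0.36 (adjusted p = 0.0449), with 1.09 to 1.44 in N1N2 plus Lrp6 and 0.71 to 1.20 in N1N2. Atp5o, the stalk's oligomycin sensitivity protein, missed the threshold at 0.43 (adjusted p = 0.0526).

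Ndufb9 and Cox6a1 fell. Ndufb9 had 1.16, 1.82, 1.69, 1.69 and 1.84 in N1N2 plus Lrp6, against 1.99 to 2.24 in N1N2, and changed by -0.46 ± 0.12 (SE, adjusted p = 0.0159). Cox6a1 had 2.49, 3.48, 3.61, 3.57 and 3.46 in N1N2 plus Lrp6, against 4.07, 3.79, 4.01, 4.09 and 3.93 in N1N2, and changed by -0.66 ± 0.19 (SE, adjusted p = 0.0294). Neither gene's groups overlapped, and for both the lowest array was N1N2 plus Lrp6 1, the array with the fewest spots above background. With median centring in place of loess both changes turned round, to 0.12 for Ndufb9 and 0.01 for Cox6a1. Groups without overlap were seen for 5 genes on the high side and 2 on the low side, against 6.13% and 4.02% of all features.

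**Figure D3:**
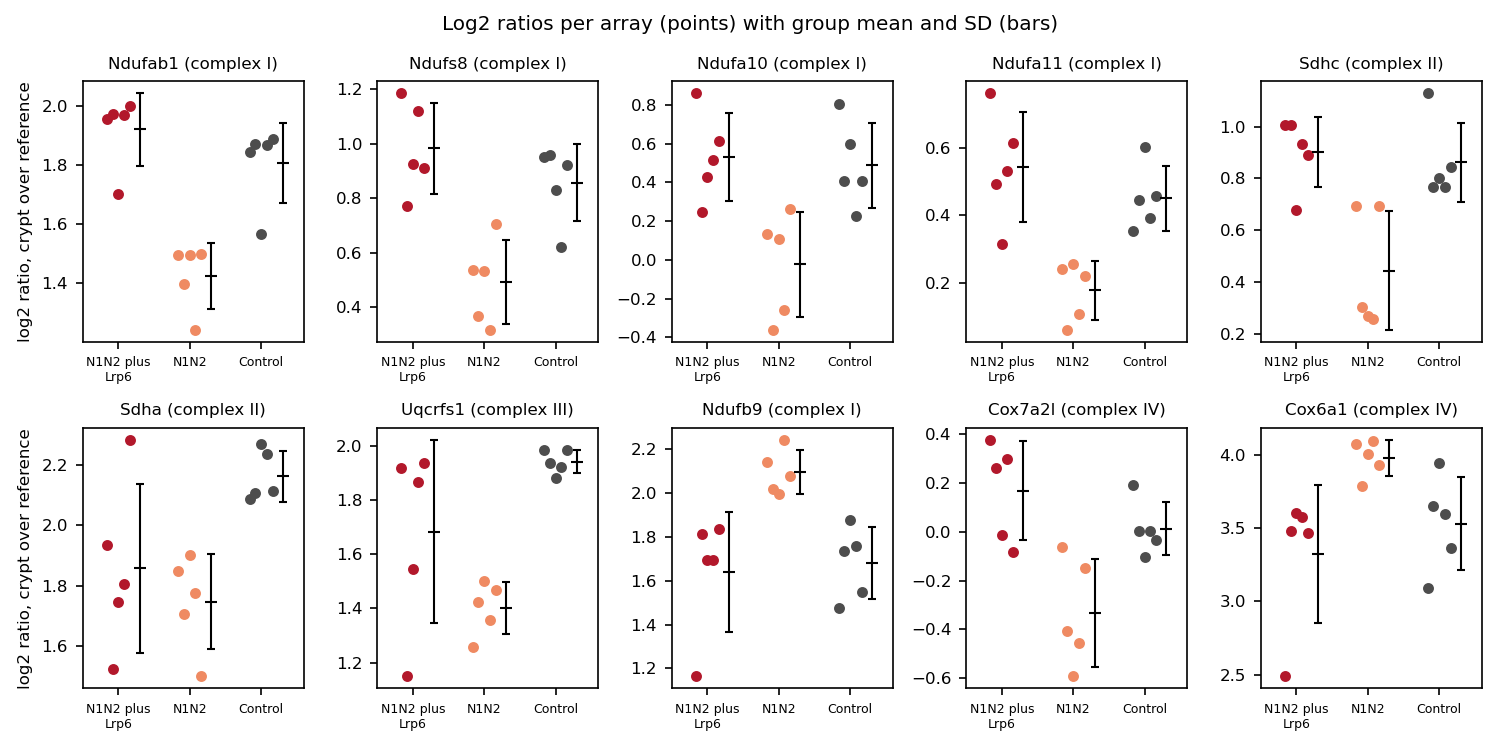
Log2 ratio of crypt over reference on each array (points), with group mean and SD (bars), for 10 of the genes in N1N2 plus Lrp6, N1N2 and Control. N1N2 is the lowest group for Ndufab1, Ndufs8, Ndufa10, Ndufa11, Sdhc, Sdha, Uqcrfs1 and Cox7a2l, and the highest for Ndufb9 and Cox6a1.

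The count in this comparison moved with the scaling. With each array's ratios centred on their median in place of loess, 58 of the 85 genes rose and 0 fell, with a median of 0.55, while 2634 of the 23939 features rose. The 58 were 26 of complex I, 3 of complex II, 7 of complex III, 6 of complex IV and 16 of complex V. With scaled arrays 9 genes rose and 0 fell, beside 2.66% and 1.95% of all features, and the median was 0.32. These genes are bright on the arrays, with 72 of 85 above the 90th percentile of red signal. No slide held both groups, so slide and group cannot be told apart. With slide as a random block 25 genes rose, beside 15.5% of all features. Arrays of 1 slide were given a correlation of -0.18 in that fit. A negative value narrows the error of differences between slides, so the larger count does not show more change. With the quality-flagged spots kept, 4 genes rose and 0 fell, beside 5.39% and 4.34% of all features. The share of spots above background, entered as a covariate, left 0 rises and 0 falls, and 0.397% of all features rose there. In that fit the 11 genes were above N1N2 by at least 0.305, only 4 of them by more than without the covariate. Their adjusted p ran from 0.0731 to 0.312, and the median of the 85 was 0.17. The share of spots itself was lower in N1N2 plus Lrp6, so the fit cannot part it from the group. Ndufab1, for example, was at 0.46 (adjusted p = 0.0731). Without N1N2 plus Lrp6 1, 15 genes rose and 2 fell. Without N1N2 1 there were 18 rises, without N1N2 5 there were 17, and without N1N2 2 or N1N2 4 there were 6. Ndufab1, Ndufs8, Ndufa10, Ndufa11, Sdhc, Cox7a2l and Ndufb9 passed under each omission of 1 array. Cox6a1 missed the threshold without N1N2 1, 3 or 4, at -0.63, -0.65 and -0.63 (adjusted p = 0.0548, 0.0548 and 0.0738).

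The comparison of N1N2 plus Lrp6 with Control asked how far crypts given all 3 antibodies differed from those given IgG. None of the 85 genes passed the test in either direction, and 9 had an unadjusted p under 0.05, beside 3114 of 23939 features. Of all features, 0.221% rose and 0.155% fell. The median of the 85 genes was 0.09, beside 0.0132 over all features, and 61 of 85 were above Control (71.8%), beside 53.9% of all features. It was -0.03 with scaled arrays and 0.39 with the quality-flagged spots kept. Atp5g3, a gene for the proton-carrying ring of ATP synthase, came nearest: it had 2.28, 2.15, 2.39, 2.53 and 2.82 in N1N2 plus Lrp6, against 2.83, 2.91, 2.89, 2.88 and 2.83 in Control. All 5 arrays lay below Control. It was the 1 gene of the 85 whose groups did not overlap, while 1.51% of all features lay apart on the high side and 1.07% on the low side. The difference was -0.43 ± 0.10 (SE, adjusted p = 0.0797). With slide as a random block, 3 genes rose and 3 fell, beside 7.29% and 4.89% of all features. The negative correlation given above applied there too. A p that misses the threshold does not show that the groups were alike.

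Set side by side, 6 genes passed in both of the comparisons that involve N1N2. The N1N2 arrays are shared by them, so an opposite sign in a gene is partly built in. Ndufab1, Ndufs8, Ndufa10, Ndufa11 and Sdhc fell in N1N2 against Control and rose in N1N2 plus Lrp6 against N1N2, and Ndufb9 did the reverse. A gene's difference between N1N2 plus Lrp6 and Control is the sum of its changes in these comparisons. The genes were picked for passing in both, with opposite signs, so a small sum is partly built in. It is no separate test of a return to Control. The difference was 0.11 for Ndufab1, 0.13 for Ndufs8, 0.04 for Ndufa10, 0.09 for Ndufa11, 0.04 for Sdhc and -0.04 for Ndufb9. Adjusted p was at least 0.595 for these genes. For Sdha, Uqcrfs1 and Atp5a1, which fell in N1N2, the same difference was -0.30, -0.26 and -0.18 (adjusted p = 0.297, 0.394 and 0.478).

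Several complex IV and V subunits come as isoforms tied to tissue. Cox7a1, the muscle form of subunit VIIa, averaged 4.74 ± 0.31 in N1N2 plus Lrp6, 4.65 ± 0.13 in N1N2 and 4.46 ± 0.07 in Control (SD, n = 5), and Cox7a2, the ubiquitous form, 1.42 ± 0.55, 1.43 ± 0.42 and 1.00 ± 0.29 in the same groups. No comparison passed for either gene. Cox6a2, the muscle form of subunit VIa, lay far below the reference RNA, at -3.04 ± 0.26 in N1N2 plus Lrp6, -3.24 ± 0.18 in N1N2 and -3.00 ± 0.18 in Control. Cox8b, a muscle form of subunit VIII, was above background on 1 array of N1N2 plus Lrp6, 4 of N1N2 and 3 of Control. Ndufa4l2, known as a hypoxia-induced relative of Ndufa4, was above background on 2, 5 and 5 arrays in the same order of groups and differed by 0.06 between N1N2 plus Lrp6 and N1N2 (adjusted p = 0.719). Cox4i2, the form known from lung and low oxygen, differed by -0.15 there (adjusted p = 0.524) and Cox6b2, known from testis, by 0.11 (adjusted p = 0.635). Atp5g1 and Atp5g2, which with Atp5g3 encode the same mature ring protein, differed by 0.01 (adjusted p = 0.976) and 0.13 (adjusted p = 0.41).

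Other mitochondrial gene lists were read beside the respiratory chain. Of all features, 6.57% rose and 5.15% fell in N1N2 against Control. In N1N2 plus Lrp6 against N1N2, 9.44% rose and 7.26% fell. Of 77 mitochondrial ribosomal protein genes, 23 fell and 0 rose in N1N2 against Control, with a median of -0.24, and 53 rose and 0 fell in N1N2 plus Lrp6 against N1N2, with a median of 0.44. Mrps22 changed by -0.65 (adjusted p = 0.00711) and 0.90 (adjusted p = 0.00088) in these comparisons, and Mrpl42 by -0.72 (adjusted p = 0.00819) and 0.83 (adjusted p = 0.00304). Of 42 assembly factors for the complexes, 11 fell in N1N2 and 21 rose with the Lrp6 antibody. Ndufaf6, an assembly factor of complex I, changed by -0.54 (adjusted p = 0.00111) and 0.75 (adjusted p = 0.000305), and Coa6, which serves copper delivery to complex IV, by -0.49 (adjusted p = 0.00278) and 0.54 (adjusted p = 0.00145).

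Of 26 import and inner membrane genes, 11 fell in N1N2 and 17 rose with the Lrp6 antibody. Timm8a1, an import chaperone, changed by -0.96 (adjusted p = 0.000555) and 0.96 (adjusted p = 0.000776), and the chaperone Hspd1 by -0.57 (adjusted p = 0.000726) and 0.67 (adjusted p = 0.000438). Of 20 genes of the tricarboxylic acid cycle and pyruvate dehydrogenase, 7 fell in N1N2 and 5 rose with the Lrp6 antibody, led by Dlat, a pyruvate dehydrogenase subunit, at -0.68 (adjusted p = 0.0054) and 0.61 (adjusted p = 0.00761). Of 21 regulators of mitochondrial biogenesis, 3 fell in N1N2 and 4 rose with the Lrp6 antibody. Tfam, which packages and transcribes mitochondrial DNA, changed by -0.71 (adjusted p = 0.00147) and 0.79 (adjusted p = 0.000828), and Tfb2m, a mitochondrial transcription factor, by -0.51 (adjusted p = 0.0347) and 0.51 (adjusted p = 0.0247). The factors whose sites were searched above did not pass: Nrf1 differed by 0.01, Gabpa by -0.22, Yy1 by -0.33 and Esrra by 0.02 in N1N2 against Control (adjusted p = 0.941, 0.132, 0.0633 and 0.935), and they were named for that search.

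Of 21 glycolysis genes, 1 rose and 2 fell in N1N2, and 1 rose and 4 fell with the Lrp6 antibody. These small counts are to be read beside the shares of all features given above. Hk2, an inducible hexokinase, changed by 1.11 (adjusted p = 0.00164) and -0.92 (adjusted p = 0.00504). Pdk1, a kinase that shuts pyruvate dehydrogenase down, changed by -0.49 (adjusted p = 0.00635) and 0.48 (adjusted p = 0.00441). With median centring, 6 glycolysis genes rose and 1 fell with the Lrp6 antibody. The signs of the medians of the ribosomal, assembly, import, cycle and biogenesis lists were the same under loess, median centring and scaled arrays in both comparisons with N1N2. These lists were not run with the quality-flagged spots kept. That setting turned the median of the 85 respiratory chain genes to 0.18 in N1N2 against Control. Scaled arrays left 2, 4, 7, 0 and 2 falls in these lists in N1N2 against Control. With median centring, 63 of 77, 22 of 42, 19 of 26, 6 of 20 and 3 of 21 genes rose with the Lrp6 antibody. The respiratory chain had 58 of 85 there, so its distance from the other lists depended on the scaling. With scaled arrays 29, 12, 9, 1 and 2 rose, beside 9 of 85 for the respiratory chain.

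**Figure D4:**
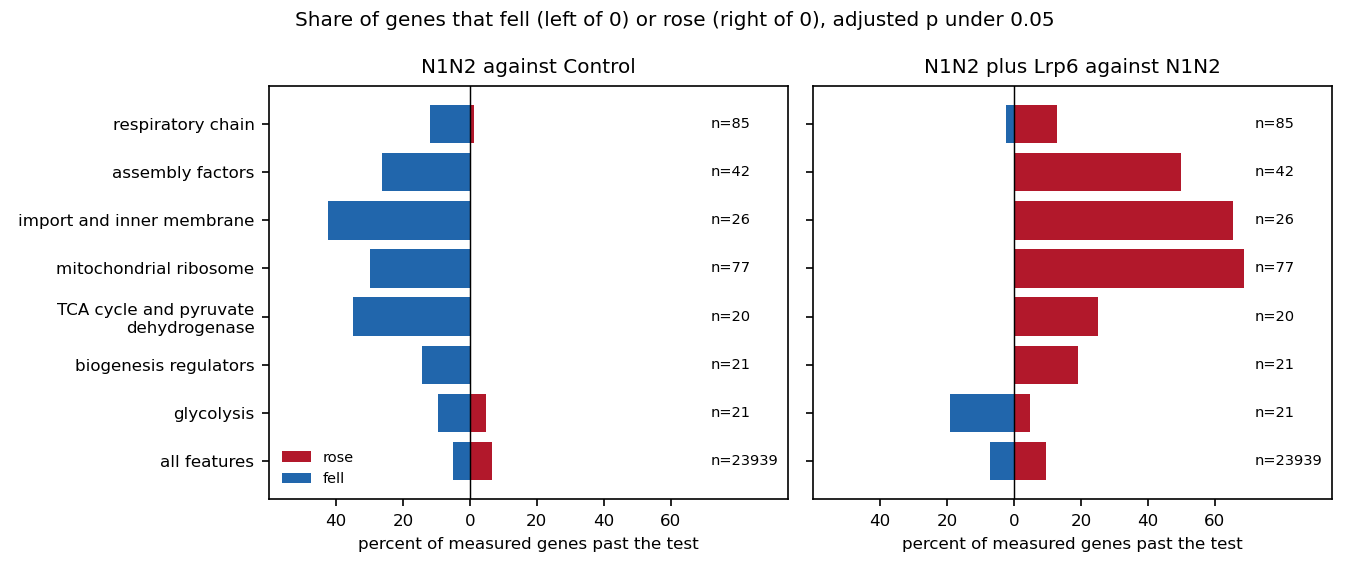
Percent of measured genes of each list that fell (left of 0) or rose (right of 0) at adjusted p under 0.05, in N1N2 against Control and in N1N2 plus Lrp6 against N1N2, with the number of genes tested. In the ribosomal list 23 of 77 fell in the left panel and 53 of 77 rose in the right panel, against 10 and 11 of 85 for the respiratory chain. These counts are after loess. With median centring, 63 of 77 and 58 of 85 rose in the comparison of the right panel.

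Markers of proliferation and of other cells moved with the same groups. Their counts are to be read beside all features in the fit without covariates. There 6.57% rose and 5.15% fell in N1N2 against Control, and 9.44% rose and 7.26% fell with the Lrp6 antibody. Of 23 cell cycle genes, 16 fell in N1N2 against Control and 19 rose in N1N2 plus Lrp6 against N1N2, and their mean log2 ratio was -1.05 ± 0.20 in N1N2 plus Lrp6 (-1.30 to -0.78), -1.75 ± 0.15 in N1N2 (-2.02 to -1.66) and -1.27 ± 0.17 in Control (-1.57 to -1.11; SD, n = 5 each). With this mean as a covariate, a setting added after the data were seen, 1 respiratory chain gene fell and 0 rose in N1N2 against Control and 0 passed in N1N2 plus Lrp6 against N1N2. The median of the 85 genes was -0.24 and 0.45 in these fits, against -0.04 and 0.12 without the covariate. The cell cycle mean of N1N2 overlapped with neither other group, so these fits cannot part it from the group. The 10 genes that fell and the 11 that rose had the same sign as before, and Ndufb9 and Cox6a1 turned round in N1N2 plus Lrp6 against N1N2. With the cell cycle covariate, 1.01% of all features fell in N1N2 and 0.104% rose with the Lrp6 antibody. Goblet cell markers rose in N1N2 for 7 of 12 and fell with the Lrp6 antibody for 6 of 12, with means of 5.13 ± 0.28 in N1N2 plus Lrp6 (4.84 to 5.49), 5.76 ± 0.17 in N1N2 (5.54 to 5.94) and 4.74 ± 0.08 in Control (4.66 to 4.86). Stromal and muscle markers, of which 12 of 18 were above background on every array, had means of -3.09 ± 0.33 in N1N2 plus Lrp6 (-3.67 to -2.89), -2.63 ± 0.12 in N1N2 (-2.80 to -2.50) and -2.36 ± 0.28 in Control (-2.70 to -2.05). Of them, 2 fell in N1N2 and 7 fell with the Lrp6 antibody, and with their mean as a covariate 0 respiratory chain genes passed in N1N2 plus Lrp6 against N1N2, where 0.802% of all features rose. The 11 genes were above N1N2 by at least 0.28 in that fit, with a median of the 85 of 0.21. The stromal and muscle means of these 2 groups did not overlap, so that fit cannot part them from the group. In N1N2 against Control the same covariate gave 12 falls and 4 rises, beside 8.76% and 9.85% of all features. Among the crypt base stem cell genes, 2 of 7 fell in N1N2 and the same 2, Ascl2 and Slc14a1, rose with the Lrp6 antibody. With scaled arrays the median of the goblet list turned round, to -0.64 in N1N2 against Control and 0.36 with the Lrp6 antibody, and that of the stromal list to 0.32 in N1N2 against Control. Of 16 immune genes 3 fell in N1N2 and 0 passed with the Lrp6 antibody. Of 12 enteroendocrine genes 1 rose in each comparison, Neurog3 by 3.83 in N1N2 (adjusted p = 8.53e-07) and Sst by 0.37 with the Lrp6 antibody (adjusted p = 0.0358). Of 5 tuft cell genes 1, Trpm5, rose in N1N2 (0.39, adjusted p = 0.0348), and none of 18 enterocyte and 5 Paneth genes passed in either. The part of goblet and stem cells in the changes of the respiratory chain was not tested.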

How the data were processed

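Per the labels' protocols, crypts were shaken out of small intestine in a chelating buffer, strained and pelleted, and their total RNA was amplified, labelled with Cy5 and hybridised together with a Cy3-labelled universal mouse reference RNA on Agilent arrays. Dyes were never swapped. The software that read the scans was Feature Extraction 11.0.1.1, per the file headers. The authors deposited, per array, raw median intensity and background intensity of both channels and a log10 ratio made by the scanner software, with quality flags. They also deposited a table of log2 values, for which the submitters' processing notes name only limma 3.6.7 and R 3.0.0. Its columns correlated with the ratios computed here at r of at least 0.99998 on every array, with slopes from 0.997 to 1.001 and column medians from 0.0144 to 0.0286, so its scale and direction are those used here.

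Calculations were run with limma 3.58.1 in R 4.3.3. Flagged spots (306 to 642 of 44397 per array) were left out, background was corrected with normexp (offset 50), ratios were normalized by loess within arrays with control spots at weight 0, and spots of a probe were averaged. Leaving out the flagged spots before the background fit was taken over from earlier work on these data, chosen with its results known. A probe was kept if well above background in red on 4 of 5 arrays of a group, which left 28488 of 39429 probes. Accessions without version gave a gene name in a RefSeq table of GRCm38.p6 to 26581 probes, and the brightest probe stood for a gene. The 15 arrays entered 1 fit (lmFit, eBayes) with two-sided p-values, Benjamini-Hochberg adjusted over 23939 features, threshold 0.05. Sample replicates are the titles' numbers. Same-numbered arrays deviated together at r from -0.01 to 0.63 in N1N2 against Control. The range was -0.44 to 0.10 in N1N2 plus Lrp6 against N1N2 and -0.27 to 0.0005 in N1N2 plus Lrp6 against Control. These values do not settle whether the numbers pair arrays. The main fit did not pair them, and a fit with a replicate block is given below. The number of arrays limits the precision. The fit was tested on simulated data.

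Earlier results of these data were known when the members, the gene lists, the naming rule and the alternatives were chosen. The rule names, per comparison, the 8 largest rises and 8 largest falls past the threshold, the extreme genes of each complex, all of complex II, Cycs, Cyc1, tissue isoforms with their partners, flagged genes and the antibody targets, and up to 4 genes per other list. The lists are assembly factors, mitochondrially encoded subunits, tricarboxylic acid cycle, glycolysis, biogenesis regulators, mitochondrial ribosome, import, cell cycle, and markers of stromal and muscle, immune, enterocyte, goblet, Paneth, enteroendocrine, tuft and crypt base stem cells and of lung. The values of 1 gene that counts among the members are not reported here.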

Additional observations from a re-analysis of the deposited data

Results flagged for a closer look

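Of 153 sets of 5 arrays (a gene named here, in 1 group), 10 held an array whose gap to the others exceeded Dixon's critical value, and chance marks about 1 in 20. Values are array levels (log2 ratio). On N1N2 plus Lrp6 1, the array with the fewest spots above background, Cox6a1 was at 2.49 against 3.46 to 3.61 on the other 4, Cox8a at 0.98 against 1.64 to 1.84 and Ndufb9 at 1.16 against 1.69 to 1.84. Without this array Cox6a1 and Ndufb9 still passed the test against N1N2. On Control 1, Sdhc was at 1.13 against 0.77 to 0.85, Sdhd at 2.16 against 1.92 to 1.97, Uqcr10 at 1.48 against 1.14 to 1.23 and Atp5g2 at 0.17 against -0.17 to -0.08. Ndufab1 was low on N1N2 plus Lrp6 3, at 1.70 against 1.96 to 2.00, and on Control 3, at 1.56 against 1.84 to 1.89. Cox7a1 was at 4.43 on N1N2 3 against 4.66 to 4.75.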

How the results depend on the processing

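Counts of genes that passed moved with the processing more than their signs did. In N1N2 against Control (1 rise, 10 falls, median -0.04), median centring gave 0 rises and a median of -0.34. Scaled arrays gave 0 rises, 2 falls and -0.35, and turned Ndufb9 to -0.018. Keeping flagged spots in the background fit gave 2 rises, 0 falls and 0.18. The scanner software's log ratio gave 0 rises, a fit of the 2 groups alone 2 and the stromal covariate 4. Slide as a fixed block and the values within the shared slide gave 0 rises and 0 falls. A threshold of 0.01 left 0 rises and 1 fall, and the cell cycle covariate 0 rises, 1 fall and a median of -0.24. In N1N2 plus Lrp6 against N1N2 (11 rises, 2 falls, median 0.12), median centring gave 58 rises, 0 falls and 0.55, and turned Cox6a1 to 0.013 and Ndufb9 to 0.12. Scaled arrays gave 0 falls and 0.32, flagged spots kept 4 rises and 0 falls, and the scanner ratio 17 and 0. A random slide block, with a correlation of -0.18 within slides, gave 25 rises. A threshold of 0.01 gave 4 rises and 0 falls. The stromal and signal covariates gave 0 rises and 0 falls. The cell cycle covariate also gave 0 and 0, with a median of 0.45, Cox6a1 at 0.18 and Ndufb9 at 0.10. In N1N2 plus Lrp6 against Control (0 and 0), a random slide block gave 3 rises and 3 falls, beside 7.29% and 4.89% of all features. Flagged spots kept gave a median of 0.39, and scaled arrays a median of -0.03. The cause of these shifts was not tested.

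Leaving out 1 array at a time gave 0 to 1 rises, 2 to 10 falls and medians of -0.09 to -0.01 in N1N2 against Control, 6 to 18 rises, 1 to 3 falls and 0.09 to 0.19 in N1N2 plus Lrp6 against N1N2, and 0 rises, 0 to 1 falls and 0.06 to 0.12 in N1N2 plus Lrp6 against Control. The replicate block gave 1 rise and 9 falls in N1N2 against Control, 10 rises and 2 falls in N1N2 plus Lrp6 against N1N2 and 0 and 0 in N1N2 plus Lrp6 against Control. The numbers share no known pairing, and 2 of 5 N1N2 arrays correlated best with the Control array of their own number. The deposited log2 table gave 1 rise and 10 falls, 12 rises and 2 falls, and 0 and 0 in the same comparisons. Cox8b and Ndufa4l2 were near background on several arrays.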

Other observations

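Of the 85 genes, 23 had 31 further probes above background. Their sign was that of the brightest probe for 23 of 31 probes in N1N2 against Control, 21 in N1N2 plus Lrp6 against N1N2 and 24 in N1N2 plus Lrp6 against Control. For Cycs, a further probe differed by -0.34 in N1N2 against Control, where the brightest probe differed by 0.09. For Ndufb11, a complex I subunit, a further probe differed by 0.34 in N1N2 plus Lrp6 against N1N2, where the brightest differed by -0.04. These genes were picked after their values were seen, and neither brightest probe passed the test.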
